A study of Rattus norvegicus with 6 samples.

Results

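Rat liver genes with no detected transcript in control animals and clear expression after a carcinogen regimen were followed into animals that also received N-acetylcysteine. A gene was included if it had 0 raw counts in both control libraries and 100 or more raw counts in both libraries of the carcinogen group. The genes were thus chosen by the measured counts of those 4 libraries, which gave 41 of 43360 gene IDs. The level in the 2 libraries with N-acetylcysteine played no part in it.

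The animals were male rats of the inbred Fischer-344 strain, and 18 were divided among 3 groups for 16 weeks. Control rats were given only the oral vehicle, carboxymethyl cellulose at 0.5% (w/v), each day. The HCC group, named for hepatocellular carcinoma, received diethylnitrosamine (DEN), an alkylating liver carcinogen, at 50 mg/kg by weekly intraperitoneal injection, and then 2-acetylaminofluorene (2-AAF), an aromatic amine carcinogen, by mouth at 25 mg/kg. The HCC/NAC group had both carcinogens and, every day by mouth, N-acetylcysteine (NAC) at 300 mg/kg. NAC was not given without carcinogens. Poly(A) RNA was sequenced from whole liver, and the RNA of 5 animals per group went into 2 libraries, so no value belongs to a single animal. The labels do not say whether the libraries of a group held different animals, so p-values reflect only how far these libraries lay apart, a spread that may be technical.

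DEN forms DNA adducts after it is activated by liver enzymes, and 2-AAF holds back the division of normal hepatocytes while altered cells grow on. Livers treated in this way are known to form altered foci and nodules and to gain bile duct-like, stromal and inflammatory cells. Genes that are quiet in the healthy adult liver can thus be detected because hepatocytes switch them on or because cells of another type enter the tissue. In whole liver RNA, fewer cells of a type and less RNA per cell cannot be told apart. NAC supplies cysteine for glutathione, the main thiol that binds reactive metabolites.

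The count tables list genes by Ensembl rat ID, and the gene table used here paired 0 of these IDs with a symbol. The functions, genome positions and sequences of the 41 genes were therefore not analysed here, and markers of liver cell types could not be examined. The genes were numbered from 1 to 41 by their mean level in HCC livers, and 4 are also given by ID: the 2 with the highest level in HCC livers and the 2 with no count in either HCC/NAC library.

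The 6 libraries held 33917707 to 37717373 counts. They differed in how many weakly expressed IDs they held: control replicate 1 had 336 IDs with 1 to 5 counts, the HCC/NAC libraries 632 and 708, and the other 3 libraries 2847 to 3364. Levels are given as CPM, the counts of a gene relative to those of its library, on library sizes scaled by TMM, a factor that balances the bulk of genes between libraries. The factors were 1.19 and 1.18 for the HCC libraries and 0.92 for both HCC/NAC libraries. The deposited files carry 1 name prefix for the control libraries and another for the 4 carcinogen-treated libraries. If the prefix marks a batch, batch and carcinogen treatment cannot be told apart in what was called silent in control.

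All 41 genes were well above 0 in HCC livers, as the choice required, and most were of modest abundance. Their mean HCC level ranged from 2.53 to 96.7 CPM with a median of 5.53 CPM. Together they took 0.0624% and 0.0617% of all counts in HCC replicates 1 and 2. The 5 highest genes held 52.3% and 54.1% of those counts. The HCC replicates lay close together for each gene, with a median ratio of 1.12 and a highest ratio of 1.49 between the higher and the lower library.

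Against a limit of 3 counts per control library, the genes were at least 28.5-fold (gene 41) to at least 1089.5-fold (gene 1) higher in HCC livers, with a median lower bound of 62.4-fold. These bounds cover counting error only. All 41 were called higher in HCC than in control livers by edgeR's quasi-likelihood test, beside 17.0% of all 16898 IDs tested. The choice of genes fixed this count, and nothing is read from it. The HCC libraries that chose the 41 genes were enough for each to pass the expression filter, whatever its level with NAC.

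How firmly 0 counts show silence differed between the control libraries. Of the IDs with 20 to 49 counts in control replicate 2, 11.8% were at 0 in control replicate 1, whereas 3.02% of the IDs with 20 to 49 counts in replicate 1 were at 0 in replicate 2. With 100 to 199 counts in the other library, 0 of 1692 and 0 of 1594 IDs were at 0. Control replicate 2 set most of the limit: 90 further IDs with 100 or more counts in both HCC libraries were at 0 in control replicate 1 but had 1 to 38 counts, with a median of 10, in replicate 2. The converse held for only 2 further IDs, with 12 and 19 counts in replicate 1. Without control replicate 2 the rule would have found 131 IDs, and without control replicate 1 it would have found 43.

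**Figure D1:**
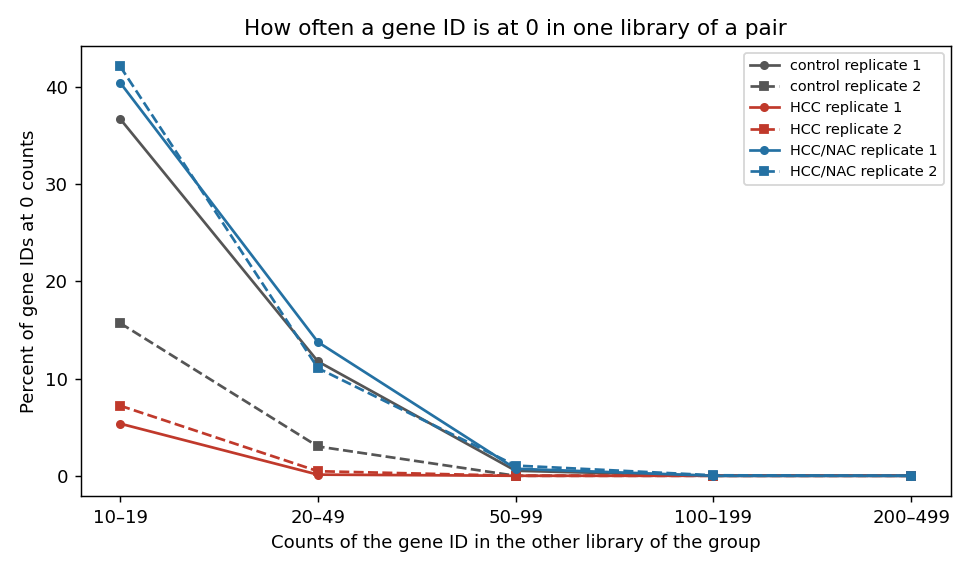
Share of gene IDs at 0 counts in a library (vertical axis, percent) by the counts of the same ID in the other library of its group (horizontal axis, counts); each line is 1 library, solid for replicate 1 and dashed for replicate 2. For IDs with 20 to 49 counts in the partner, control replicate 1 and both HCC/NAC libraries had 11.1% to 13.8% at 0, control replicate 2 had 3.02% and the HCC libraries had 0.117% and 0.469%.

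The limit of 100 counts also cut through a continuous range. The 5 genes closest above it had 100 and 121, 155 and 101, 101 and 120, 111 and 104, and 111 and 107 counts in HCC replicates 1 and 2. The 5 IDs closest below it, also at 0 in control, had 115 and 98, 129 and 92, 109 and 91, 91 and 108, and 88 and 98 counts. In the HCC/NAC libraries those 5 IDs had between 17 and 68 counts.

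The comparison with HCC/NAC livers asked how much of this new expression was present when NAC was given with the carcinogens. The genes were mostly lower but seldom absent. With NAC, 38 of the 41 genes still had counts in both libraries, 1 had counts in a single library and 2 (4.88%) had none. Over all IDs tested, 1.57% had none. Among the 11274 other IDs with 100 or more counts in both HCC libraries, only 1 had none. Of the 41, 13 had 100 or more counts in both HCC/NAC libraries, 5 in 1 library only and 23 in neither. This limit was a higher scaled level than in HCC livers. In replicates 1 and 2, 1 count stood for 0.0301 and 0.0308 CPM in HCC/NAC and 0.0222 and 0.0250 CPM in HCC. The summed level of the 41 genes fell from 523 and 522 CPM in the HCC libraries to 277 and 271 CPM in the HCC/NAC libraries. This is a description for which no test was made. The median gene stood at 38.8% of its HCC level.

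In edgeR's quasi-likelihood test, with p-values adjusted over all 16898 IDs by the Benjamini-Hochberg method, 20 of the 41 genes were lower with NAC at an adjusted p under 0.05, beside 16.5% of all IDs tested. None was higher (0 genes, also 0 at an unadjusted p under 0.05 and 0 by DESeq2), beside 11.2% of all IDs tested. The high HCC level was part of the choice, which favours falls. Of the 20, 19 fell at least 2-fold, beside 4.91% of all IDs, and 13 at least 4-fold, beside 1.12%, with IDs at 0 taken at the limit of 3 counts per library. Among the 21 genes without a call, 17 had a log2 fold change below 0 and 4 above 0. Over the 41 genes the median log2 fold change was -1.36, beside -0.05 over all IDs tested.

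**Figure D2:**
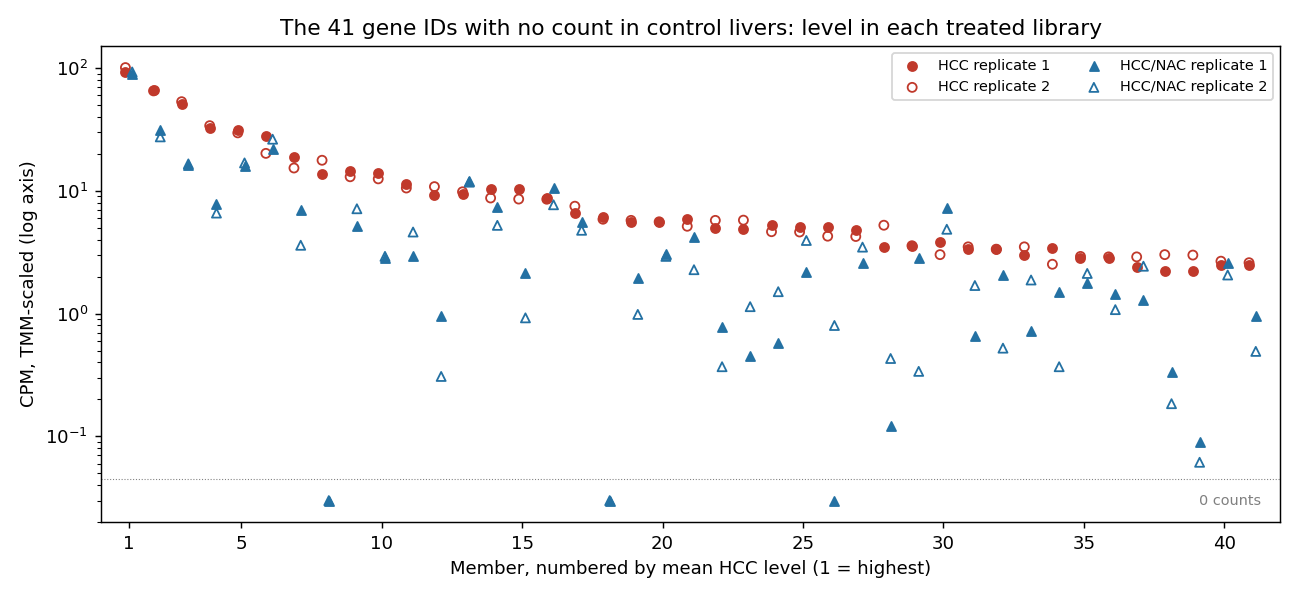
Level of each of the 41 genes (horizontal axis, numbered by mean HCC level) in each treated library (vertical axis, TMM-scaled CPM on a log axis; points at the bottom are 0 counts). Circles are HCC and triangles HCC/NAC livers. For 34 genes both triangles lie below both circles, beside 36.9% of all IDs tested with both HCC/NAC libraries below both HCC libraries.

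The highest gene did not show the common pattern. ENSRNOG00000002331 (gene 1) had 4172 and 4036 counts in HCC replicates 1 and 2, and 2946 and 3016 in HCC/NAC replicates 1 and 2. On the scaled level this was 96.7 ± 5.7 CPM (SD, n = 2) in HCC and 90.8 ± 2.9 CPM (SD, n = 2) in HCC/NAC livers, and the libraries of the groups overlapped. Its log2 fold change of -0.09 ± 0.09 (SE) was not called (adjusted p = 0.504, edgeR). With library totals alone, a setting added after the data were seen, gene 1 was called lower (log2 fold change -0.46, adjusted p = 0.00115, edgeR), while the median of all IDs moved by -0.37.

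The next gene fell. ENSRNOG00000010210 (gene 2) had 2981 and 2607 counts in HCC and 1036 and 893 in HCC/NAC livers. Both HCC/NAC libraries lay below both HCC libraries, at 29.3 ± 2.6 against 65.6 ± 0.78 CPM (SD, n = 2 each). On the log2 scale it changed by -1.16 ± 0.12 (SE), with an adjusted p of 2.86e-05 in edgeR, which left 44.7% of the HCC level. Gene 3 had 2275 and 2129 counts in HCC and 534 and 538 in HCC/NAC livers, and stood at 31.5% of its HCC level. Gene 4 had 1471 and 1358 counts in HCC and 258 and 214 in HCC/NAC livers, and fell further, to 21.6%. For gene 5 the counts were 1407 and 1187 in HCC and 529 and 548 in HCC/NAC livers, 53.9% of the HCC level. For genes 2 to 5 both HCC/NAC libraries lay below both HCC libraries, beside 36.9% of all IDs tested. All 4 were called lower (highest adjusted p = 0.00125, gene 5, edgeR), beside 16.5% of all IDs tested. The genes of highest expression thus kept between 21.6% and 93.9% of their HCC level. Their order changed, since gene 6 stood above genes 3, 4 and 5 with NAC.

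Gene 6, like gene 1, had no call. Its HCC libraries held 1250 and 808 counts and its HCC/NAC libraries 726 and 855, or 24.0 ± 5.4 and 24.1 ± 3.1 CPM (SD, n = 2 each), and the groups overlapped (adjusted p = 0.989, edgeR).

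Genes 7 and 9 to 12 were each called lower, beside 16.5% of all IDs tested. For each, both HCC/NAC libraries lay below both HCC libraries, beside 36.9% of all IDs tested. Gene 7 had 845 and 614 counts in HCC and 230 and 117 in HCC/NAC livers. Gene 9 had 656 and 521 against 172 and 232, and its call was lost without HCC replicate 1 (adjusted p = 0.0701, edgeR). Gene 10 had 623 and 501 against 95 and 95 counts, and gene 11 had 513 and 422 against 98 and 150. These 4 genes kept 22.0% (gene 10) to 44.7% (gene 9) of the HCC level. Gene 12 fell much further, from 420 and 433 counts to 32 and 10, or 6.32% of the HCC level, a log2 change of -3.97 ± 0.50 (SE), with an adjusted p of 1.48e-04 in edgeR.

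The 2 genes without a count in HCC/NAC livers were not the weakest of the 41. ENSRNOG00000014492 (gene 8) had 618 and 710 counts in HCC livers, 15.7 ± 2.8 CPM (SD, n = 2), and 0 and 0 in HCC/NAC livers. Against the limit of 3 counts per HCC/NAC library it was at least 172.1-fold lower with NAC (adjusted p = 9.83e-07, edgeR). ENSRNOG00000018446 (gene 18) had 273 and 235 counts in HCC livers, 5.96 ± 0.14 CPM (SD, n = 2), and again 0 and 0 with NAC, at least 65.3-fold lower (adjusted p = 4.02e-05, edgeR). Both genes were thus detected in the 2 HCC libraries alone, among the 6 of the series. Both bounds cover counting error only, and 0 counts in these libraries can stand beside more than 3 counts in the partner library. Of the IDs with 20 to 49 counts in the partner, 13.8% were at 0 in HCC/NAC replicate 1 and 11.1% in replicate 2, and of those with 50 to 99 counts 0.722% and 1.05% were. With 100 to 199 counts in the partner it was 0 of 1961 and 1 of 1972 IDs. The folds may therefore be smaller than these bounds.

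A further group of genes was near the detection limit with NAC. Low counts were lost more often in the HCC/NAC than in the HCC libraries. Of IDs with 10 to 19 counts in the partner library, 40.5% and 42.1% were at 0 in HCC/NAC replicates 1 and 2. In HCC replicates 1 and 2 it was 5.36% and 7.21%. The part of this loss in the falls of weakly expressed genes was not tested. Gene 39 had 101 and 120 counts in HCC and 3 and 2 in HCC/NAC livers, and its summed counts put it at 2.93% of the HCC level (95% exact binomial interval 0.942% to 6.94%, counting error only). Gene 28 had 158 and 210 counts in HCC and 4 and 14 in HCC/NAC livers. Gene 38 had 100 and 121 counts against 11 and 6. The HCC/NAC libraries of these 3 genes lay far below both HCC libraries, and each was called lower in the fit to all 6 libraries. Gene 26 had 229 and 171 counts in HCC livers but 0 and 26 in the HCC/NAC libraries, so replicate 1 alone would have placed it among the silent genes. Its call (adjusted p = 0.0297, edgeR) was lost without HCC replicate 1 (adjusted p = 0.100) and with DESeq2 (adjusted p = 0.525). Gene 22 had 226 and 230 counts against 26 and 12, and kept 10.7% of its HCC level. In all, 7 of the 41 genes stood at 10% of their HCC level or less, 19 between 10% and 50%, 11 between 50% and 100%, and 4 above their HCC level.

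**Figure D3:**
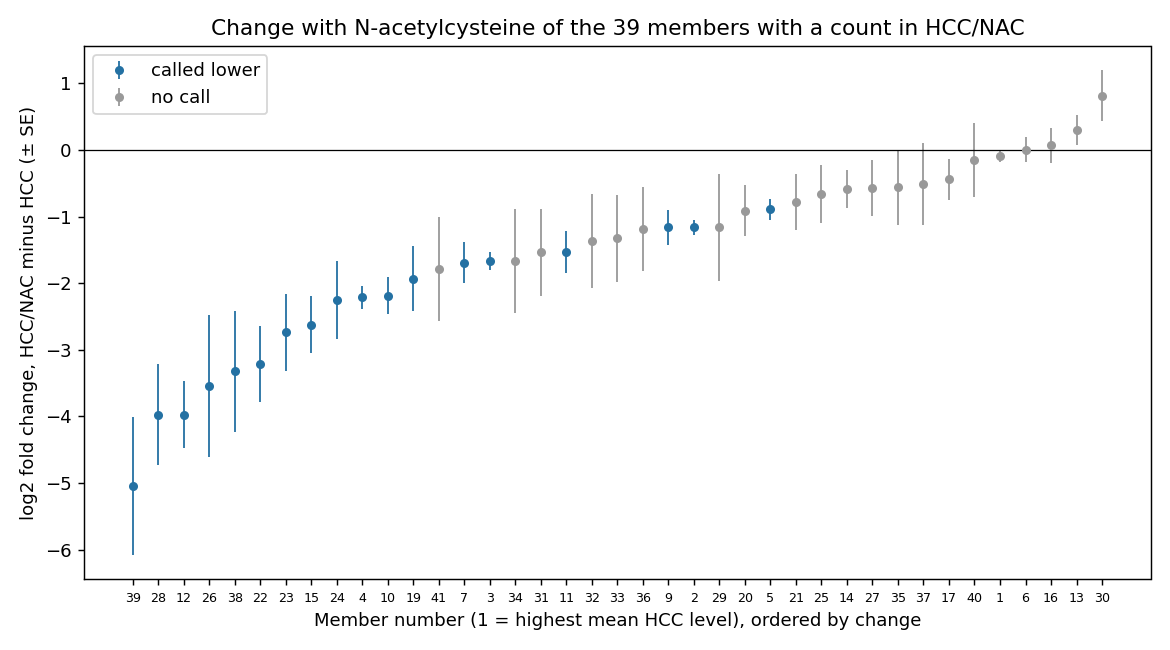
Change with NAC (vertical axis, log2 fold change of HCC/NAC minus HCC livers with its standard error) for the 39 genes with a count in HCC/NAC, ordered from the largest fall (horizontal axis, gene number). Blue points were called lower and grey points had no call; the changes run from -5.04 (gene 39) to 0.81 (gene 30), and none above 0 was called.

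The 4 genes above their HCC level were genes 6, 13, 16 and 30, and genes 13, 16 and 30 were singled out after their values were seen. Gene 13 had 423 and 393 counts in HCC and 398 and 382 in HCC/NAC livers, 9.60 ± 0.30 against 11.9 ± 0.17 CPM (SD, n = 2 each). Gene 30 had 174 and 121 against 241 and 158 counts, 3.44 ± 0.60 against 6.06 ± 1.7 CPM (SD, n = 2 each). For these 2 genes both HCC/NAC libraries lay above both HCC libraries in CPM, beside 29.0% of all IDs tested, but neither difference was called (adjusted p = 0.367 and 0.149, edgeR). Gene 16 had 395 and 342 against 347 and 250 counts, and its groups overlapped (adjusted p = 0.895, edgeR). The log2 fold changes of genes 6, 13 and 16 were below 0 with library totals alone, so only gene 30 kept its sign under each scaling tried.

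Both HCC/NAC libraries lay below both HCC libraries for 34 of the 41 genes (82.9%), beside 36.9% of all IDs tested, and 5 genes overlapped. The share was 44.8% among the other IDs with 100 or more counts in both HCC libraries. Among those of them with only 1 to 20 counts in the higher control library it was 69.5%, so this trait was not particular to the 41. The fall did not follow the level in HCC livers in a simple order. Genes 1 to 14 (at least 9.51 CPM in HCC) stood at a median of 39.6% of their HCC level, genes 15 to 28 at 23.6% and genes 29 to 41 (at most 3.55 CPM) at 39.9%. The number called lower was 10 of 14, 8 of 14 and 2 of 13, beside 16.5% of all IDs tested. The median standard error of the log2 fold change rose from 0.24 to 0.46 and 0.66 over these ranges, so a missing call among the weakest genes carries little information on whether they changed.

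The HCC/NAC replicates lay over 2-fold apart, or 1 of them was at 0, for 12 of the 41 genes. The HCC replicates did so for none (0 genes), but the choice of genes by 100 or more counts in both HCC libraries made this nearly certain, and the groups are not compared on it. Among the other 11274 IDs with that many HCC counts, the shares were 3.76% in HCC/NAC and 0.00887% in HCC, and over all IDs tested 18.6% and 8.52%. The widest gap was in gene 29, with 94 and 11 counts in HCC/NAC replicates 1 and 2 after 159 and 143 in HCC livers. Gene 32 had 69 and 17 counts, and gene 34 had 50 and 12. Neither replicate was always the lower: gene 23 had 15 and 37 counts, and gene 24 had 19 and 49.

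The 41 genes were set beside IDs with the same 100 or more counts in both HCC libraries but some count in control. Of those 11274 IDs, 23.8% were lower and 15.2% higher with NAC, with a median log2 fold change of -0.12, whereas 48.8% of the 41 were lower and 0% higher. Their median HCC level was 16.4 CPM, higher than that of the 41. Nearest in kind were 164 IDs that were almost silent in control, with 1 to 20 counts in the higher control library, a range set after the data were seen. Their median HCC level was 4.22 CPM. Of these, 14.6% were lower and 2.44% higher, with a median log2 fold change of -0.76. Neither HCC/NAC library held a count for 1 of the 164 IDs, beside 2 of the 41. The difference between these sets was not tested. HCC/NAC replicates lay over 2-fold apart, or 1 was at 0, for 22.0% of the 164 IDs and 29.3% of the 41.

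**Figure D4:**
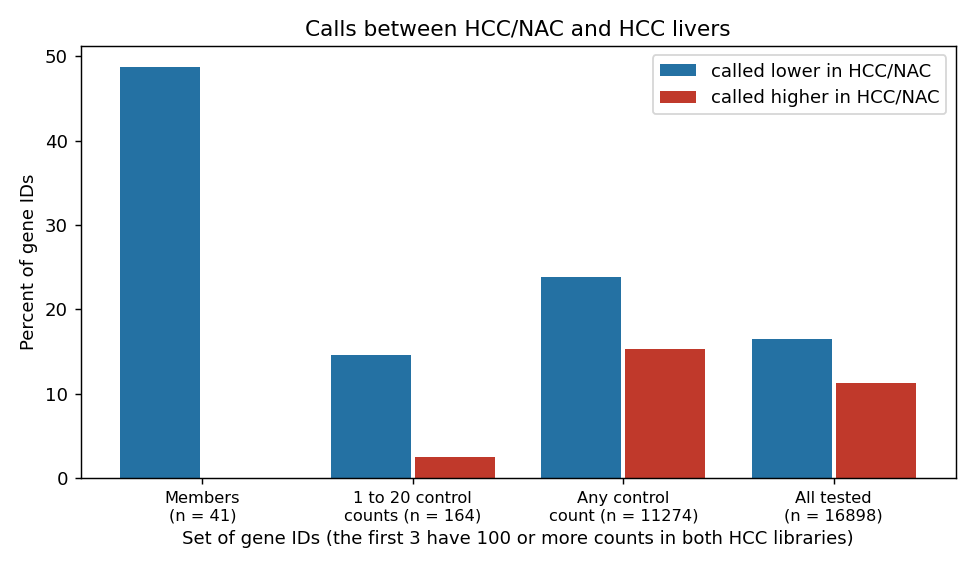
Percent of gene IDs called lower (blue) and higher (red) in HCC/NAC than in HCC livers (vertical axis, adjusted p under 0.05) in 4 sets (horizontal axis): the 41 genes, IDs with 1 to 20 counts in the higher control library, IDs with any control count, and all tested. All sets but the last hold only IDs with 100 or more counts in both HCC libraries. The 41 genes had 48.8% lower and 0% higher, and the almost silent IDs 14.6% and 2.44%.

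Of the 20 falls, 12 were called under each of 14 other settings (other scalings, filters, tests and left-out libraries): genes 2 to 5, 7, 8, 10 to 12, 15, 18 and 22. Leaving out an HCC library had the most effect. Without HCC replicate 1 the calls of genes 9, 19, 24, 26, 38 and 39 were lost, and without HCC replicate 2 those of genes 19, 23, 24, 28, 38 and 39. In either case 14 genes were called lower.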

How the data were processed

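The authors deposited raw counts for 43360 Ensembl gene IDs in each of 6 libraries; FastQC, STAR, featureCounts and edgeR are named per the submitters' processing notes, and the alignments counted came from STAR, per the file headers. Versions, genome build, annotation release, strand setting and treatment of duplicate reads are, for each step, not given in the sources used here, so paralogs or overlapping genes could share or lose reads. The RefSeq gene table used for names (47357 genes) held 0 Ensembl IDs, and planned gene lists and cell markers could not be used.

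The analysis used edgeR 4.0.16 (R 4.3.3) with filterByExpr (16898 IDs), TMM scaling, and 1 quasi-likelihood fit to all 6 libraries, 1 mean for each group, and 3 residual degrees of freedom by design. The control libraries, at 0 for all 41 genes, held no spread for these genes. Nor did the HCC/NAC libraries for genes 8 and 18. Calls used a Benjamini-Hochberg adjusted p under 0.05 over all IDs tested. A group at 0 was set to 3 counts per library for folds. The fit was tested on simulated data in which control and HCC livers had the same means, so genes such as the 41 were not covered. The genes and lists were chosen with earlier results of these data known. Library values were given for the 12 highest genes, the 8 largest called falls and genes at 0 with NAC; others named were chosen after their values were seen. Alternatives were RLE, upper-quartile and no scaling, DESeq2 1.42.0, other filters, a replicate block, 4 libraries only, a 2-fold threshold, other limits of the rule, and leaving out each library.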

Additional observations from a re-analysis of the deposited data

How the results depend on the processing

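The number of genes lower with NAC was 20 under RLE and upper-quartile scaling and both other filters, 19 with DESeq2 or a 2-fold threshold, 23 with the HCC and HCC/NAC libraries only and 26 with library totals alone, and 14 to 23 on leaving out a library. None was called higher (0 genes) in any of these settings. The share of all IDs called was taken in the main fit only: 16.5% lower, 4.91% at least 2-fold lower and 11.2% higher. The numbers under other scalings, filters, tests and sets of libraries therefore have no such share beside them. Library totals alone shifted the median log2 fold change of all IDs by -0.37 and put 40 of the 41 genes below 0, against 37 with TMM. Deviations of same-numbered libraries were hardly correlated over all IDs tested (0.0028 between HCC and HCC/NAC). With 2 libraries per group this cannot exclude a pairing that touched few genes. A fit with the replicate number as a block called the same 20 genes. The rule found 70 IDs at 50 counts, 23 at 200 counts, 62 with at most 3 counts per control library, 48 with at most 1 and 33 at 3 CPM, and 43 to 131 with a control library left out. At 50 and 200 counts, 21 and 8 of the genes passed in both HCC/NAC libraries. Of 574 alternative values of single genes, 533 kept direction and call, 13 lost a call and 20 gained it, and 8 uncalled values changed sign. These were gene 6 with library totals alone (-0.37) and without the low-count filter (-0.026), gene 13 with library totals alone (-0.066) and gene 16 with library totals alone (-0.30), and further values on leaving out a library, which ran from -0.23 to 0.23 for gene 6 (below 0 without control replicate 1, HCC replicate 2 or HCC/NAC replicate 2) and from -0.19 to 0.25 for gene 16 (below 0 without HCC/NAC replicate 1). The cause was not tested.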

Other observations

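Among the 164 IDs that were almost silent in control livers, the level with NAC was also described by control count. The 30 IDs with 1 to 5 counts in the higher control library had a median log2 fold change of -1.03 between HCC/NAC and HCC livers, the 33 IDs with 6 to 10 counts one of -0.61 and the 101 IDs with 11 to 20 counts one of -0.67, beside -1.36 for the 41 genes without a control count. These ranges were set after the data were seen, and the differences between them were not tested.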
